A study of Mus musculus with 5 samples.

Results

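Akt-spheres were compared with every embryonic stem (ES) type culture of the series: 2 arrays of spheres, from ES cell lines 21 and 42, against 3 arrays of ES-type cells, which together are all 5 arrays of the study. All cells descended from feeder-free mouse ES cells of the 129 strain (E14tg2a, male) that express myr-Akt-Mer, a membrane-bound Akt kinase fused to a hormone receptor domain and switched on by 4-hydroxytamoxifen (4OHT). Akt-spheres of both lines were induced and expanded on OP9 stromal cells in OP9 medium with 1 µM 4OHT, and the OP9 cells were removed by a short plating step before analysis. The ES-type side held line 21 ES cells in ES culture with 1 µM 4OHT, the same line without 4OHT, and ES-like cells that were recovered out of line 21 spheres by a transient 4OHT treatment on mouse embryonic fibroblasts (reverted cells). Each ES-type culture had 1 array, no line 42 ES culture was analysed here, and among the spheres line and replicate cannot be told apart. Medium, OP9 contact and growth as spheres differ together between the sides, so their effects cannot be told apart either. The submitters describe the spheres as similar to primordial germ cells (PGCs), the embryonic precursors of eggs and sperm.

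Mouse ES cells hold naive pluripotency through a network of transcription factors that includes Klf4, Klf5, Tbx3, Esrrb and Nr0b1, fed by leukaemia inhibitory factor (LIF) acting through Stat3. PGCs arise from the epiblast under Prdm1, Prdm14 and Tfap2c and keep Nanog while they express germ cell genes. Cells store fatty acids as triglyceride in lipid droplets and glucose as glycogen, and low oxygen stabilises hypoxia-inducible factors (HIFs), which switch on genes for vessel growth, collagen processing and their own breakdown. Akt, a kinase downstream of PI3K, acts on metabolism, growth and survival.

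A gene was termed apart if both sphere arrays lay at least 2-fold above, or both at least 2-fold below, every ES-type array on the log2(intensity + 1) scale; the distance between the nearest arrays of the 2 sides is its gap. Of 10589 genes tested, 186 (1.76%) were apart above and 280 (2.64%) apart below. With limma over all 5 arrays and a Benjamini-Hochberg threshold of 0.05, 102 genes (0.963%) were called higher and 156 (1.47%) lower in spheres, and all 258 (2.44%) were among the 466 (4.4%) that were apart. At these shares a short list would hold few or no calls. Lists below with no call or a single call are therefore not set apart by that count. By any margin, both spheres lay above every ES-type array for 19.1% of tested genes and below for 18.4%. The called higher genes had a median 4.69-fold difference and the called lower genes a median 5.90-fold difference, against 1.28-fold in either direction over all tested genes. Levels of the 2 sphere lines were less than 2-fold from each other in 226 of the 258 called genes. The difference between the lines is part of the spread that limma tests against. The calls therefore favour genes whose lines are close, and this count is no separate sign of agreement between the lines. Over all tested genes the lines lay a median of 0.40 log2 units from each other. With a pseudocount of 16 in place of 1, the fold differences of 31 of the 73 called genes named by rule were over 1.5 times smaller, by up to 3.24 times for the dimmest sides. The calls rest on few arrays: with the array of untreated ES cells left out, limma called 0 genes (1315 at an unadjusted p under 0.05). Its count was 148 with line 21 spheres left out, 98 with line 42 spheres left out, 32 with 4OHT-treated ES cells left out and 284 with reverted cells left out. Leaving out line 21 spheres gave 420 genes apart above and 593 below, leaving out line 42 spheres 433 and 546, and leaving out reverted cells 340 and 457, since fewer arrays then bound the gap. At the edge of the 2-fold rule lay Gnat2 (gap 2.004-fold) inside and Dbx2 (1.998-fold) outside on the higher side, and Atox1 (2.002-fold) inside and Pdlim2 (1.995-fold) outside on the lower side.

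**Figure D1:**
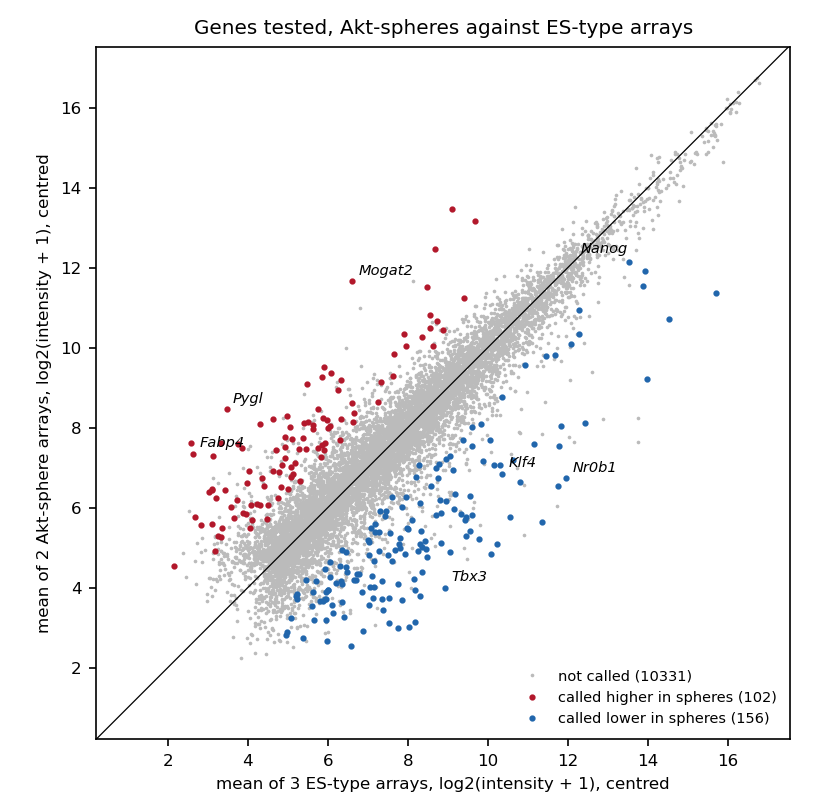
Each point is 1 of 10589 tested genes, with its mean over the 2 Akt-sphere arrays on the vertical axis and over the 3 ES-type arrays on the horizontal axis, both as centred log2(intensity + 1); the line marks equal levels. The 102 genes called higher by limma (red) lie above the line and the 156 called lower (blue) below it, while Nanog lies on it.

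The widest gap on the higher side belonged to Pygl, the liver-type glycogen phosphorylase, which releases glucose from stored glycogen. Its intensity was 334 in line 21 spheres and 364 in line 42 spheres, against 13.0 in ES cells with 4OHT, 9.41 without 4OHT and 8.42 in reverted cells. Both spheres thus stood far above 3 arrays that lay close to the lowest listed intensities of 2.96 to 3.66, and the difference was 31.6-fold (log2 4.98, SE 0.25, limma adjusted p = 0.00432), or 3.80 on the log2 scale with a pseudocount of 16. Pygl alone was called among 14 tested genes of glycogen metabolism, whose median log2 difference was 0.01 against 0.00 over all genes. Pgm2, which interconverts glucose phosphates, was also apart at 1260.2 and 1851 in spheres against 251 to 604 on ES-type arrays (limma adjusted p = 0.0952). The muscle and brain phosphorylases did not share the pattern: Pygm read 33.0 and 51.1 in spheres against 39.7 to 50.0, and Pygb 25.1 and 23.3 against 35.3 to 65.8.

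Mogat2, which adds a fatty acid to monoacylglycerol and is best known from the intestine, read 2967 in line 21 and 3511 in line 42 spheres, against 60.5 in ES cells with 4OHT, 78.0 without and 194 in reverted cells. Reverted cells held the highest ES-type value, still far below both spheres (33.0-fold, log2 5.04, SE 0.51, limma adjusted p = 0.0146). Fitm1, a membrane protein that helps form lipid droplets in muscle, read 153 and 159.9 in spheres, against 9.71 in ES cells with 4OHT, 9.29 without and 5.10 in reverted cells (log2 4.17, SE 0.32, limma adjusted p = 0.00785). Fabp4, which carries fatty acids in fat cells and macrophages, stood at 183 and 143 in spheres, against 4.63 in ES cells with 4OHT, 4.99 without and 6.07 in reverted cells. The difference was 26.3-fold (log2 4.72, SE 0.25, limma adjusted p = 0.00432). Fitm1 and Fabp4, unlike Mogat2, were near the lowest listed intensities on every ES-type array, and with a pseudocount of 16 their log2 differences were 2.85 and 3.07.

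Of 26 tested lipid droplet and triglyceride storage genes, limma called 3 higher (Mogat2, Fitm1 and Fabp4) and 1 lower, against 0.963% and 1.47% of all tested genes, and 5 were apart above, against 1.76%, with a list median of 0.05. Mogat2 and Fabp4 were chosen as marker genes of the spheres with these data known, so their part of these counts was fixed in advance. Dgat2, which adds the last fatty acid of triglyceride, read 234 and 123 in spheres against 22.7 to 55.5 on ES-type arrays (limma adjusted p = 0.0688), and Fabp5, a fatty acid carrier of skin, 210.4 and 181 against 13.9 to 87.3 (0.148). Cidea, a protein that fuses lipid droplets, fell, with 12.6 and 15.2 in spheres against 77.7 to 236 (log2 -2.95, SE 0.50, limma adjusted p = 0.0464), a call that ended with a pseudocount of 16 (limma adjusted p = 0.0721) and with quantile normalization (0.0517). The droplet coat gene Plin2 read 41.2 and 147 in spheres against 184 to 414, without passing (limma adjusted p = 0.188). Sterol and fatty acid synthesis, as a list of 19 tested genes, had 0 limma calls, with Scd2 apart above (3528 and 3146 in spheres against 872 to 1515) and Elovl6 apart below (176 and 220.4 against 488 to 865).

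Fabp4 also marks fat cells, which OP9 stroma can form, so the markers of those cells were read beside it. Of 6 tested adipocyte genes Fabp4 alone was called, and the summed intensity of the 12 adipocyte markers on the array was 863 and 699.1 in spheres and 370.9 to 686.9 on ES-type arrays. Fabp4 itself is in this sum, at 183 and 143 in spheres against 4.63 to 6.07 on ES-type arrays. The sum is therefore not separate from the Fabp4 difference. For each of the other 5 tested members the sides overlapped: the lipase gene Lpl (325 and 208 against 52.7 to 233 on ES-type arrays), the transcription factor gene Cebpa (176 and 133 against 171 to 231), the droplet gene Cidec (64.7 and 109 against 49.0 to 86.2), Plin1 (25.2 and 32.4 against 22.8 to 26.6) and the glucose transporter gene Slc2a4 (38.2 and 15.8 against 30.2 to 63.6). The hormone genes Adipoq (12.2 and 12.0 against 3.31 to 6.73) and Retn (5.80 and 11.8 against 3.71 to 7.08) and the protease gene Cfd (12.7 and 14.6 against 12.1 to 15.96) were too dim to be tested. Pparg, Cd36 and Lep, which lacked a value on 1 array each, reached at most 15.3 in spheres and 29.3 on ES-type arrays. The part of fat cells in the Fabp4 difference was not tested. Markers of OP9 stroma summed to 925 in line 21 and 380.7 in line 42 spheres, below the 1210.5 to 1988 of the ES-type arrays. In that list limma called 2 of 11 tested, Thy1 and Acta2, both lower, against 1.47% called lower over all tested genes. Within that list the matrix gene Mgp read 328 in line 21 and 10.1 in line 42 spheres and the chemokine Cxcl12 109 and 8.21, whereas the collagen gene Col1a1 read 17.5 and 17.0. Fibroblast markers summed to 2134.2 and 533 in spheres and 1553.4 to 3046.2 on ES-type arrays (0 of 9 tested called), macrophage markers to 200.9 and 335.8 in spheres and 577.9 to 838.4 on ES-type arrays (0 of 4). In bulk RNA, fewer cells of a type and less RNA per cell cannot be told apart.

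**Figure D2:**
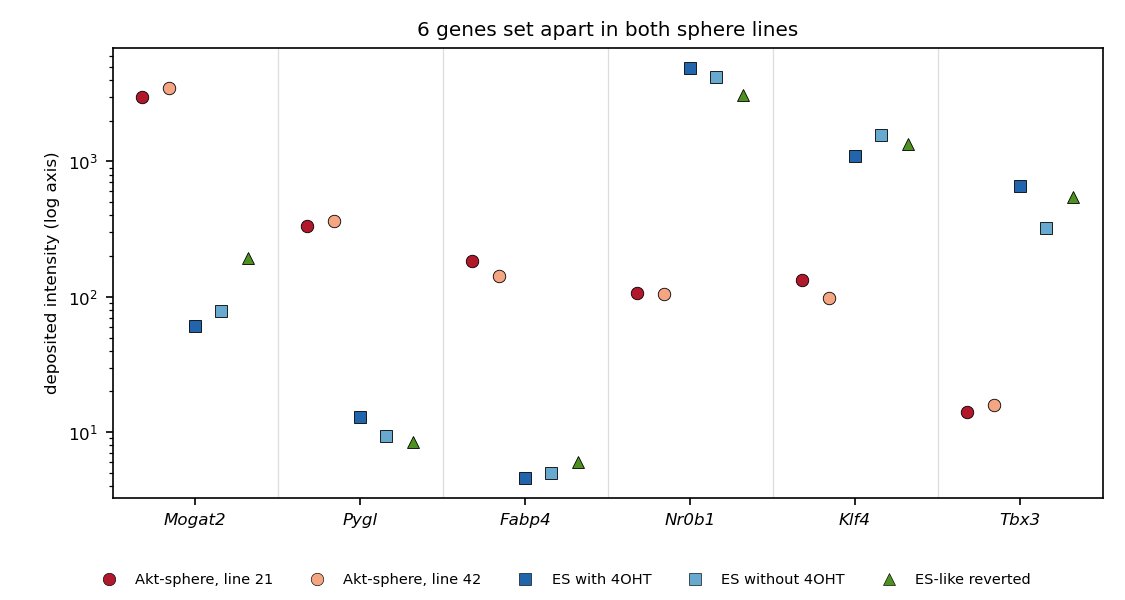
Deposited intensity (vertical log axis) of 6 genes on each of the 5 arrays: spheres as circles, ES cells as squares, reverted cells as triangles. For Mogat2, Pygl and Fabp4 both spheres lie above all 3 ES-type arrays, and for Nr0b1, Klf4 and Tbx3 both lie below them.

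Hypoxia-induced genes formed the list with the most called higher members: 7 of 28 tested were called higher and 0 lower, against 0.963% called higher over all tested genes, and the list's median log2 difference was 0.91 against 0.00. Promoter windows are shown first for those called members that hold the letters ACGTG, the core of the element that HIFs bind, and for Pygl, the gene with the widest gap. Each is the 250 bases before the gene's start in the RefSeq promoter table (GRCm38.p6), written in the gene's direction, with ACGTG or its reverse complement CACGT in capitals.
Ankrd37, chr8:45999851-46000100, minus strand: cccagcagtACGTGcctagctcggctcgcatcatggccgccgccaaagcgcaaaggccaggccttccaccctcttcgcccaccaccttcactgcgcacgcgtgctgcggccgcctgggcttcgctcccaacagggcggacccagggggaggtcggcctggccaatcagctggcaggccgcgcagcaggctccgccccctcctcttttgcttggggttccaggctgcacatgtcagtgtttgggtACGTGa
Egln3, chr12:54203875-54204124, minus strand: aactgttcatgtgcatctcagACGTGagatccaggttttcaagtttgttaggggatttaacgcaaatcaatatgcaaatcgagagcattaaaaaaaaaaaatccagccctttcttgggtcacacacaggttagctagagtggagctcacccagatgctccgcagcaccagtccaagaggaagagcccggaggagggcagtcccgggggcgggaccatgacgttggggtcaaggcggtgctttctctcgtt
Egln1, chr8:124949255-124949504, minus strand: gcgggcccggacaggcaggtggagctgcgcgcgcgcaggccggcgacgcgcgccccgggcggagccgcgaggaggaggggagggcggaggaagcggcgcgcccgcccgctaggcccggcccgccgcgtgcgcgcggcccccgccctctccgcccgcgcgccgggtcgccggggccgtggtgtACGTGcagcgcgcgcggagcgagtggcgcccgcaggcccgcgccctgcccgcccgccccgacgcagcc
Ero1a, chr14:45318573-45318822, minus strand: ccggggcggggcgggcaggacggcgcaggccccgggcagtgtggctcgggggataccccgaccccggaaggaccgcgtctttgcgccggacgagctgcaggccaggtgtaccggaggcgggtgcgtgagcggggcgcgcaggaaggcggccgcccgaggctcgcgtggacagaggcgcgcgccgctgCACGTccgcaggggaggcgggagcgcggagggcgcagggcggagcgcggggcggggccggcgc
P4ha2, chr11:54100674-54100923, plus strand: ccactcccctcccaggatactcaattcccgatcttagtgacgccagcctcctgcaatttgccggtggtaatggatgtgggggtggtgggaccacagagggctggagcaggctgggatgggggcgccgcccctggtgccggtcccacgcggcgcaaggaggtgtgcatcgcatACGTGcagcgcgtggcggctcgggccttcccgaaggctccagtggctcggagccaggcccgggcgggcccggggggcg
Pygl, chr12:70227684-70227933, minus strand: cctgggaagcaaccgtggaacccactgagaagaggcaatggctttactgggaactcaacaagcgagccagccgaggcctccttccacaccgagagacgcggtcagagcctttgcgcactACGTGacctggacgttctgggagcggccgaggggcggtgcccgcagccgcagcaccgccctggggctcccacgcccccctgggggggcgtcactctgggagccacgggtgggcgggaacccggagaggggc
Counted from the gene start, the letters begin at -241 and -6 in Ankrd37, -229 in Egln3, -68 in Egln1, -63 in Ero1a, -78 in P4ha2 and -131 in Pygl. On either strand they stood in 5 of the 7 windows of the called hypoxia genes (71.4%) and not in those of Adm and Hif3a, in 12 of 25 windows of the 16 uncalled tested members that the table holds, out of 21 (48.0%), in 21.3% of windows of all genes called higher, in 15.5% of those called lower and in 21.2% of those of all tested genes. CACGTG, a longer run that holds both forms at once, was in 0 of the 7 windows. A gene with several starts has a window for each, so windows can outnumber genes. Counted by gene, the letters stood in 1 or more windows of 5 of the 7 called members and of 10 of the 16 uncalled members. Over all tested genes they stood in 2116 of the 8551 genes with a window. A match describes letters in this window and not a bound site.

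The called hypoxia genes included several parts of the oxygen-sensing loop. Egln3, a prolyl hydroxylase that marks HIFs for breakdown and is itself HIF-induced, read 745 in line 21 and 707 in line 42 spheres, against 28.0 in ES cells with 4OHT, 92.1 without and 79.8 in reverted cells (12.1-fold, log2 3.60, SE 0.56, limma adjusted p = 0.0398). The 2 spheres were nearly equal, and the lowest ES-type value came from the ES cells with 4OHT. Egln1, the main HIF hydroxylase, read 269 and 308 in spheres against 46.0 to 83.9 (log2 2.20, SE 0.32, limma adjusted p = 0.0364), and Hif3a, a HIF subunit with a dampening splice form, 98.4 and 119 against 28.1 to 36.4 (log2 1.70, SE 0.25, limma adjusted p = 0.0374). The third hydroxylase, Egln2, read 788 and 708 in spheres against 546 to 568 (limma adjusted p = 0.357). The HIF subunit gene Hif1a, whose product is controlled mainly as protein, read 328 and 425 against 364 to 459 (limma adjusted p = 0.853), and Epas1 6.36 and 13.5 against 18.3 to 59.3 (0.191).

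The other called members act further down. Ankrd37, an ankyrin protein and HIF target, read 368 in line 21 and 804 in line 42 spheres against 27.4 to 56.9 on ES-type arrays (log2 3.61, SE 0.48, limma adjusted p = 0.0298). Adm, the vasodilator adrenomedullin, read 279 and 315 against 13.2 to 37.7 (log2 3.58, SE 0.42, limma adjusted p = 0.0218). Both enzymes of protein folding and collagen processing rose as well: Ero1a, which forms disulfide bonds in the ER, read 931 and 902 against 199.7 to 205 (log2 2.18, SE 0.21, limma adjusted p = 0.0136), and P4ha2, a collagen prolyl hydroxylase, 205 and 204 against 66.3 to 89.6 (log2 1.38, SE 0.23, limma adjusted p = 0.0432). For Ero1a both sides spanned narrow ranges, while the spheres differed most from each other for Ankrd37, where line 42 was higher. Apln, a vessel-growth peptide, was apart but not called, at 224 and 58.9 in spheres against 4.19 to 26.7 (limma adjusted p = 0.116).

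Not every member of the hypoxia list stood out. Vegfa, the vascular growth factor, read 59.6 and 44.7 in spheres against 9.37 to 32.9 (limma adjusted p = 0.163), Pfkfb3, a driver of glycolysis, 486 and 407 against 43.3 to 209.6 (0.145), and the acid-balancing enzyme Car9 37.5 and 54.6 against 26.4 to 35.7 (0.295). In Vegfa, Pfkfb3 and Car9 both spheres still read above every ES-type array, by less than 2-fold between the nearest arrays. The glucose transporter gene Slc2a1 read 1241 and 2249 against 1667 to 3186 (limma adjusted p = 0.557) and Pdk1, which holds pyruvate back from mitochondria, 866 and 973 against 723 to 1254 (0.84). Of 24 tested glycolysis genes 0 were called by limma and 0 were apart, with a median log2 difference of 0.16.

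**Figure D3:**
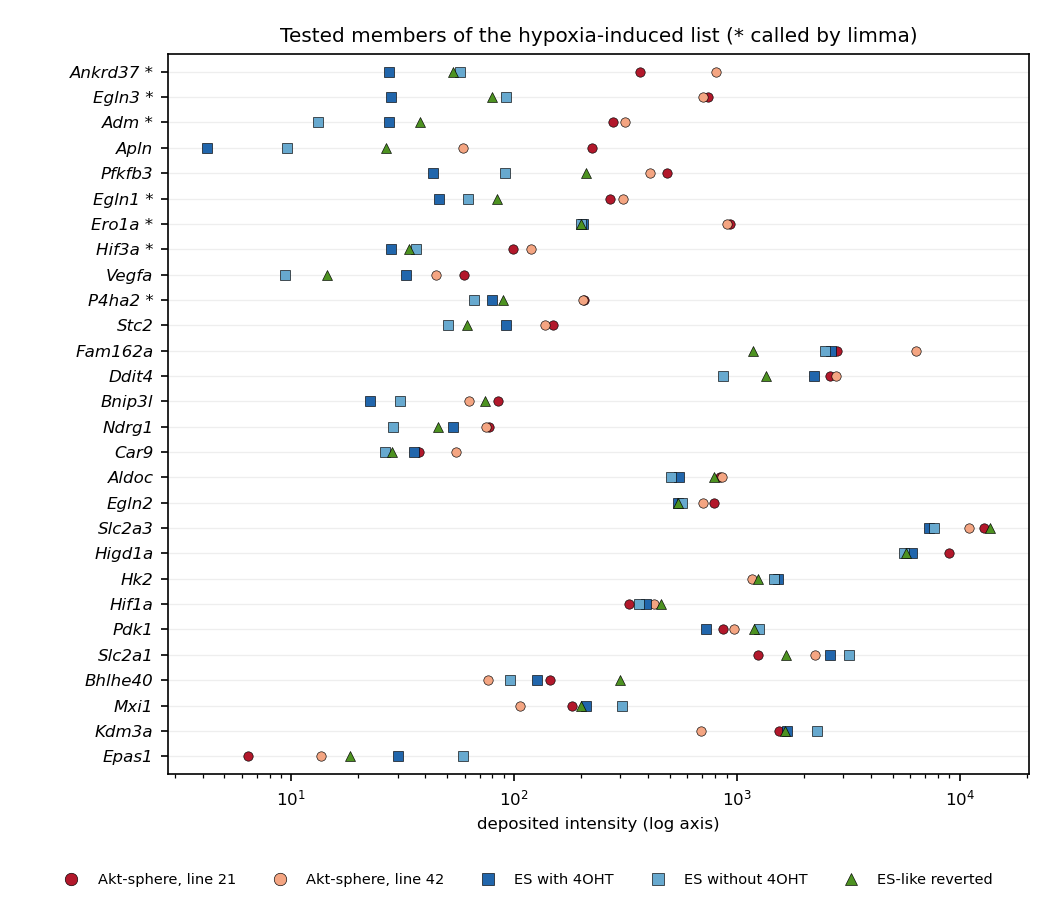
Deposited intensity (horizontal log axis) of the 28 tested hypoxia-induced genes on each array, ordered by the sphere minus ES-type difference. The 7 members called by limma (asterisk) have both spheres to the right of every ES-type array, while members in the lower part of the plot overlap or lie to the left.

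Xlr3b, of an X-linked family expressed in lymphoid and germ cells, read 12143 in line 21 and 10388 in line 42 spheres, against 829.9 in ES cells with 4OHT, 363 without and 553 in reverted cells (20.4-fold, log2 4.35, SE 0.36, limma adjusted p = 0.00941). Xlr4b was called as well, at 151 and 107 against 28.3 to 37.6 (log2 1.92, SE 0.26, limma adjusted p = 0.031). Thus 2 of the 8 tested members of the X-linked germ cell list were called higher, against 0.963% of all tested genes. The other 6 were apart in neither direction, and the list's median log2 difference was 0.10. Xmr, an Xlr-related gene outside that list, was also called higher, at 136 and 105 in spheres against 11.2 to 20.6 on ES-type arrays (log2 2.88, SE 0.34, limma adjusted p = 0.0223). Near-identical copies exist within the Xlr3 and Xlr4 groups, and a probe may read several of them. Tdrkh, a tudor protein that helps make piRNAs, read 602 and 568 in spheres against 72.2 to 88.3 (log2 2.87, SE 0.22, limma adjusted p = 0.00785). Of 16 tested transposon defence genes it was the 1 called higher and Morc1, given further on, the 1 called lower. Over all tested genes the shares were 0.963% and 1.47%. The transposon list had a median of -0.53.

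Hmgb3, a high-mobility-group chromatin protein of stem and progenitor cells, rose, with 10290.1 and 8244 in spheres against 779 to 890.0 on ES-type arrays (11.3-fold, log2 3.50, SE 0.24, limma adjusted p = 0.00749). Smarca2, the BRM-type ATPase of SWI/SNF remodelling complexes, read 240.1 and 150.2 against 6.27 to 23.7 (log2 3.81, SE 0.52, limma adjusted p = 0.031), and it alone was called among 24 tested genes of chromatin remodelling. Its paralogue Smarca4, the ATPase of ES cell complexes, read 982 and 862 against 799 to 991 (limma adjusted p = 0.958). Polycomb and histone modifier genes had 0 of 25 called, imprinted genes 0 of 17 and DNA methylation genes 0 of 19. In the last list the methyltransferase gene Dnmt3a and the oxidase gene Tet2 were apart below, Dnmt3a at 154 and 122 in spheres against 324 to 686, and Tet2 at 11.9 and 9.09 against 24.2 to 36.6.

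Gstm5, a mu-class glutathione transferase, read 5431 in line 21 and 5802 in line 42 spheres, against 263 in ES cells with 4OHT, 324 without and 815 in reverted cells (13.7-fold, log2 3.77, SE 0.50, limma adjusted p = 0.0298). Reverted cells lay nearest to the spheres. Its relative Gstm7 was apart above without a call, at 82.5 and 150.1 against 22.9 to 36.9 (limma adjusted p = 0.0523). Gstm2 read 311 and 792 against 58.7 to 202 (limma adjusted p = 0.127) and Gstm4 32.1 and 44.6 against 20.4 to 49.8 (0.69), and probes of this family may share targets. The alpha-class Gsta4, which detoxifies lipid aldehydes, fell, with 4446 and 4614 against 10989 to 12404 (log2 -1.39, SE 0.22, limma adjusted p = 0.0411; 0.0512 with quantile normalization). Of 27 tested genes of glutathione and antioxidant defence, Gstm5 and Gsta4 were the 2 called, against 2.44% of all tested genes. Prxl2a, a peroxiredoxin-like protein outside that list, was among the widest gaps at 771 and 552 against 57.7 to 83.2 (log2 3.26, SE 0.28, limma adjusted p = 0.00962).

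Further genes were among the 20 widest gaps on the higher side. Rab6b, a brain-enriched GTPase of Golgi transport, read 169 and 226 in spheres against 6.57 to 11.5 (log2 4.29, SE 0.28, limma adjusted p = 0.00716). Pkdcc, a secreted kinase of skeletal growth, read 215 and 346 against 3 ES-type arrays between 18.1 and 19.2 (log2 3.79, SE 0.27, limma adjusted p = 0.00754). Hey1, a repressor switched on by Notch, stood at 927 in line 21 and 403 in line 42 spheres against 55.8 to 59.2 (log2 3.40, SE 0.39, limma adjusted p = 0.0211), and the 2 spheres differed more there than the ES-type arrays did. Cx3cl1, the chemokine fractalkine, read 68.5 and 106 against 4.65 to 10.4, Auts2, a regulator of neuronal genes, 88.8 and 76.9 against 3.99 to 10.7, and Rflna, which shapes the actin skeleton, 272 and 117 against 11.9 to 16.7. Pgbd5, a transposase-derived gene, and the uncharacterised 3830403N18Rik complete the 20 widest gaps, the last at 296 and 129 against 3.80 to 7.25.

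Single members were called higher in lists of other pathways and lineages. Bmp7, a bone morphogenetic protein, read 209 and 360.5 in spheres against 31.3 to 47.9 (log2 2.71, SE 0.32, limma adjusted p = 0.0218), while Bmp4, the family member that induces PGCs in the embryo, was apart below at 75.5 and 7.99 against 462 to 903 (limma adjusted p = 0.0597). Gata2, a factor of blood and trophoblast, read 181 and 183 against 16.7 to 43.1 (log2 2.59, SE 0.39, limma adjusted p = 0.0387), alone among 8 tested blood and endothelium genes, whose 18 markers on the array summed to 742.5 and 615.2 in spheres and 573 to 690 on ES-type arrays. Trf, the iron carrier transferrin, read 125 and 182 against 21.1 to 38.6 (log2 2.31, SE 0.36, limma adjusted p = 0.0398), and in the same endoderm list Gata6 fell, at 17.7 and 21.2 against 72.4 to 165 (log2 -2.37, SE 0.36, limma adjusted p = 0.038). Vldlr, a lipoprotein receptor, was the 1 called of 22 tested ER and amino acid stress genes (386 and 255 against 18.0 to 48.1, log2 3.31, SE 0.43, limma adjusted p = 0.028). Gata2 was also the 1 called of 11 tested trophectoderm genes. Mesoderm genes had 0 of 16 called and neuroectoderm genes 0 of 10.

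**Figure D4:**
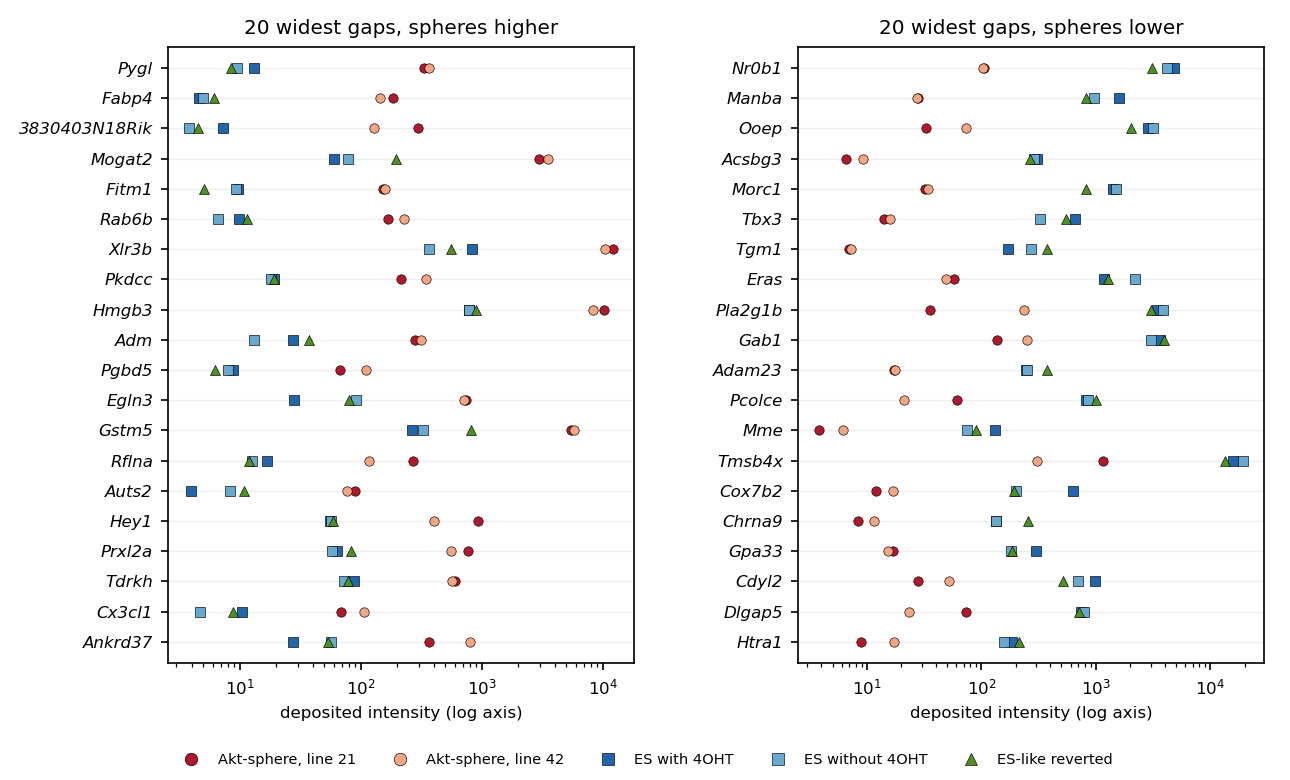
Deposited intensity (horizontal log axis) on each of the 5 arrays for the 20 genes per direction with the widest gap among those called by limma, widest at the top. In the left panel both spheres (circles) lie to the right of every ES-type array, and in the right panel to the left of it.

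On the lower side the widest gap was that of Nr0b1 (Dax1), a nuclear receptor of the ES cell network, at 106 in line 21 and 104 in line 42 spheres, against 4854 in ES cells with 4OHT, 4210.2 without and 3105 in reverted cells. Even the lowest ES-type array, that of reverted cells, was 28.0-fold above the nearer sphere (log2 -5.23, SE 0.27, limma adjusted p = 0.00432). Tbx3, a T-box factor that sustains naive pluripotency, read 14.2 and 15.9 in spheres, against 659.9 in ES cells with 4OHT, 322 without and 544 in reverted cells (30.4-fold lower, log2 -4.93, SE 0.32, limma adjusted p = 0.00716). For the Krüppel-like factors, Klf4 read 134 and 97.4 in spheres, against 1090.4 in ES cells with 4OHT, 1573 without and 1336 in reverted cells (log2 -3.51, SE 0.30, limma adjusted p = 0.00962), and Klf5 97.5 and 60.4 against 613 to 882 (log2 -3.27, SE 0.31, limma adjusted p = 0.0115). Klf2, the third family member of the network, read 228 in line 21 and 774 in line 42 spheres against 819 to 890.1 (limma adjusted p = 0.336), so that line 42 lay just under the ES-type arrays.

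Of 25 tested naive pluripotency genes, limma called 8 lower and 0 higher, against 1.47% called lower over all tested genes, and 11 were apart below, against 2.64%. Their median log2 difference was -1.91, and their summed intensity was 8650 and 10139.2 in spheres and 30523.8 to 42111.7 on ES-type arrays. Bright probes weigh most in such a sum, so it does not show a fall of each member. Zfp42, which limma did not call, alone gave 11370.2 to 15996 of it on ES-type arrays. Klf4, Tbx3 and Nr0b1 were chosen as marker genes with these data known. Their part of the 8 calls, the 11 apart genes and the sum was therefore fixed in advance. Beside the factors already given, the called members were Stat3, the Ras relative Mras, the mannosidase Manba and the growth factor Fgf4. Manba read 28.0 and 27.3 in spheres against 821 to 1605 (log2 -5.24, SE 0.33, limma adjusted p = 0.00716), Mras 33.6 and 24.5 against 259.7 to 792 (log2 -4.16, SE 0.54, limma adjusted p = 0.0286), and Fgf4 18.3 and 7.66 against 124 to 362 (log2 -4.17, SE 0.57, limma adjusted p = 0.031). The members apart without a call were Zfp42, Jam2 and Tet2. Zfp42 (Rex1), a standard marker of naive cells, showed the sphere lines far from each other, with 86.1 in line 21 and 1029.8 in line 42 spheres against 11370.2 to 15996 (limma adjusted p = 0.0502). Jam2, a junction protein, read 28.7 and 33.2 against 193 to 1776, where reverted cells were lowest.

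The naive list was not lowered throughout. Nanog, central to pluripotency, read 5523 and 4003 in spheres, against 3839 in ES cells with 4OHT, 5479.7 without and 4538 in reverted cells, so the 2 sides overlapped. Prdm14 read 205 and 227 against 121 to 151 (log2 0.65, SE 0.24, limma adjusted p = 0.218), with both spheres above every ES-type array. Tfcp2l1 read 24.4 and 22.5 against 23.7 to 33.6 and overlapped. Of the core and ES-associated list, 5 of 16 tested were called lower, against 1.47% of all tested genes, and 7 were apart below, against 2.64%. The lists overlap: the called Nr0b1 and Fgf4 are also in the naive list, and Eras is given further on. Nr0b1 is a marker gene, so its part of both counts was fixed in advance. Dppa5a, an ES cell RNA-binding protein, read 1014 and 6732 against 49687 to 58362 (log2 -4.34, SE 0.74, limma adjusted p = 0.0474). The Nodal co-receptor Tdgf1 read 4263 and 3473 against 12375 to 17662 (log2 -2.02, SE 0.29, limma adjusted p = 0.0364, or 0.0513 with quantile normalization). In contrast Utf1 read 2821 and 7842 against 5125 to 7534 (limma adjusted p = 0.741).

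Genes of the LIF route were called lower, though not its receptor chains. Stat3, the transcription factor that carries the LIF signal, read 57.2 and 45.4 in spheres, against 315 in ES cells with 4OHT, 256 without and 262 in reverted cells (log2 -2.41, SE 0.24, limma adjusted p = 0.0145). Myc read 38.2 and 34.8 against 189.7 to 296 (log2 -2.57, SE 0.31, limma adjusted p = 0.0246), the kinase gene Pim1 154 and 118 against 356 to 499 (log2 -1.70, SE 0.29, limma adjusted p = 0.0474), and the NF-kappaB cofactor Bcl3 14.1 and 9.55 against 49.2 to 58.1 (log2 -2.14, SE 0.27, limma adjusted p = 0.0273). With Klf4 these were the 5 called lower of 16 tested LIF and Stat3 genes, against 1.47% of all tested genes, and 0 were called higher. Klf4 is a marker gene, so its part of the 5 was fixed in advance. Among receptor chains Lifr read 25.1 and 23.8 against 22.1 to 50.2 (limma adjusted p = 0.57) and Il6st 171 and 167 against 262 to 334 (0.149). Socs3, a feedback target of Stat3, read 573 and 658 against 808 to 1193 (limma adjusted p = 0.317).

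Eras, an ES cell Ras protein that activates PI3K and so Akt, read 57.9 in line 21 and 49.2 in line 42 spheres, against 1189 in ES cells with 4OHT, 2189 without and 1284 in reverted cells (27.4-fold lower, log2 -4.78, SE 0.36, limma adjusted p = 0.00785). It alone was called among 21 tested Akt and PI3K pathway genes, and 0 of 15 FoxO targets were called. Gab1, a docking protein that links growth factor receptors to PI3K, was also among the 20 widest gaps, with 137 and 252 against 3059 to 3946 (log2 -4.23, SE 0.31, limma adjusted p = 0.00785). The probe for Akt1 read 123 and 348 against 98.6 to 199 (limma adjusted p = 0.73), and whether it reads the transgene is not given in the sources used here. Ccnd2, a cyclin of the G1 phase that FoxO factors repress, was apart above with the lines unlike, at 4300.3 and 945 in spheres against 57.9 to 214 (limma adjusted p = 0.0601).

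Ooep, part of the maternal complex beneath the egg membrane, read 32.5 and 73.0 in spheres, against 2845 in ES cells with 4OHT, 3172 without and 2013 in reverted cells (52.7-fold lower, log2 -5.72, SE 0.41, limma adjusted p = 0.00754). Morc1, a silencer of transposons in male germ cells, read 32.3 and 33.9 against 827 to 1507 (log2 -5.14, SE 0.34, limma adjusted p = 0.00716). Sycp3 of the synaptonemal complex read 33.7 and 94.7 against 487 to 752 (log2 -3.49, SE 0.47, limma adjusted p = 0.0302), the egg coat gene Zp3 19.2 and 47.1 against 227 to 531 (log2 -3.48, SE 0.49, limma adjusted p = 0.0345), and Nlrp4f, an oocyte gene, 4.94 and 5.69 against 29.2 to 118 (log2 -3.33, SE 0.54, limma adjusted p = 0.0426). For Ooep, Morc1, Sycp3 and Zp3 the lowest ES-type value was that of reverted cells. By list, 2 of 9 tested maternal and 2-cell genes and 2 of 18 late germ cell and meiosis genes were called, all lower, against 1.47% called lower over all tested genes. With a pseudocount of 16 Nlrp4f lost its call (log2 -1.92, limma adjusted p = 0.0852), which leaves 1 of the 9.

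Early PGC genes had 0 of 21 tested called by limma (0 apart in either direction), with a median log2 difference of -0.12. Over all tested genes 2.44% were called and 4.4% apart, so a list of this size may well hold 0 at those shares. Both spheres lay above every ES-type array, by less than 2-fold, for Tfap2c (1943 and 1581 against 497 to 999, limma adjusted p = 0.127), Nanos3 (476 and 1084 against 219 to 326, 0.156) and Dnd1 (2142 and 393 against 172 to 223, 0.175), 3 regulators of germ cell fate and survival. Dppa3 (Stella) separated the sphere lines instead, at 223 in line 21 and 9198 in line 42 spheres against 171 to 1626. Prdm1 overlapped, at 47.4 and 21.1 against 30.8 to 55.8 (limma adjusted p = 0.623). Primed epiblast genes had 0 of 14 called, with 1 apart above.

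**Figure D5:**
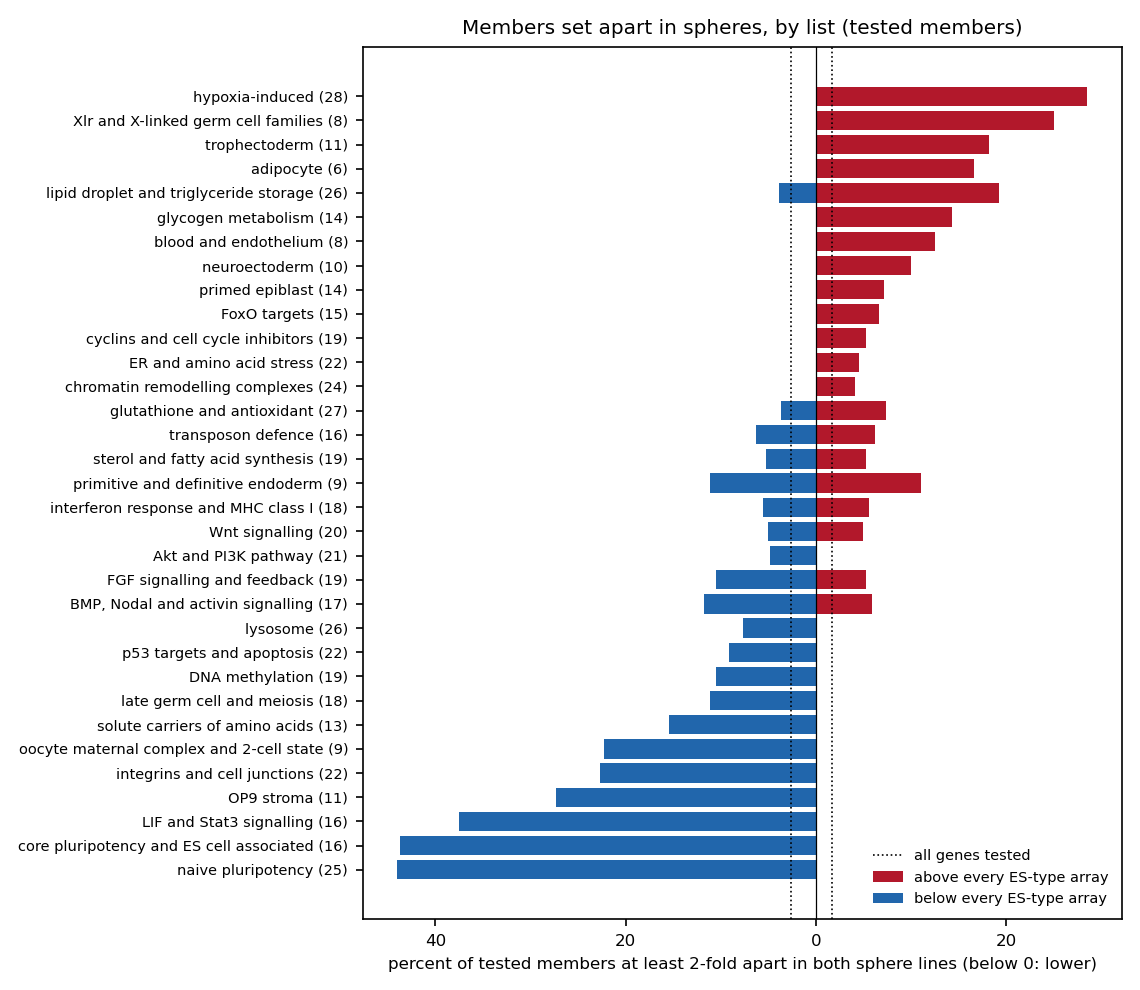
Percent of each list's tested members (number in brackets) that were at least 2-fold above every ES-type array in both sphere lines (red, right) or below (blue, left), for the lists with any such member; dotted lines mark 1.76% and 2.64%, the shares over all tested genes. Naive pluripotency reaches farthest to the left, with 11 of 25, and hypoxia-induced genes farthest to the right, with 8 of 28. The naive list holds the marker genes Klf4, Tbx3 and Nr0b1, and the lipid droplet list Mogat2 and Fabp4, which were chosen with these data known.

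Tmsb4x, the actin-binding thymosin beta 4, read 1159.7 in line 21 and 306 in line 42 spheres against 13560.1 to 19290.0 (log2 -4.75, SE 0.58, limma adjusted p = 0.0254). Its spheres differed from each other more than its ES-type arrays did. Lower too were the membrane protein Adam23 (17.2 and 17.6 against 245 to 372), the membrane peptidase neprilysin, Mme (3.79 and 6.12 against 74.5 to 131), the secreted protease Htra1 (8.87 and 17.3 against 157 to 214) and Pcolce, which aids collagen processing (60.7 and 20.9 against 815 to 994). The crosslinking enzyme gene Tgm1 read 7.02 and 7.18 against 171 to 374 (log2 -5.00, SE 0.38, limma adjusted p = 0.00785). Of 22 tested integrin and junction genes, 2 were called lower, against 1.47% of all tested genes. They were the laminin receptor chain Itga6 (18.9 and 15.1 against 71.0 to 91.4, log2 -2.17, SE 0.24, limma adjusted p = 0.0189) and the dim Itgb7 (8.99 and 3.53 against 33.5 to 50.2). The Itgb7 call ended with a pseudocount of 16 (limma adjusted p = 0.0558), which leaves Itga6. Another 3 were apart below without a call: the gap junction gene Gja1 (1025 and 83.5 against 7137 to 7718, limma adjusted p = 0.0741), Jam2, and E-cadherin Cdh1 (930.5 and 1110.0 against 2586 to 4484, 0.0523).

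Acsbg3, of a family of acyl-CoA synthetases, read 6.54 and 9.25 in spheres against 267 to 308 (log2 -5.03, SE 0.24, limma adjusted p = 0.00432). Pla2g1b, a secreted phospholipase, read 35.5 and 234 against 3051 to 3849, but a dimmer second probe differed by only -0.80 on the log2 scale, so the probes disagree. Cox7b2, of the respiratory chain, read 12.0 and 16.9 against 192 to 626, the acetylcholine receptor subunit Chrna9 8.38 and 11.6 against 133 to 253, and the surface antigen Gpa33 16.8 and 15.3 against 181 to 297. Dlgap5, a spindle protein, read 73.3 and 23.1 against 716 to 789.9 (log2 -4.14, SE 0.49, limma adjusted p = 0.0235), and Cdyl2, a chromodomain protein, 28.0 and 51.7 against 512 to 988 (log2 -4.17, SE 0.38, limma adjusted p = 0.0115). Cyclins and cell cycle inhibitors had 0 of 19 called.

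In the p53 and apoptosis list, 2 of 22 tested were called, both lower, against 1.47% called lower over all tested genes. Pmaip1 (Noxa), which promotes cell death, read 4.72 and 12.3 in spheres against 78.9 to 309.6 (log2 -4.42, SE 0.68, limma adjusted p = 0.0398), and Mcl1, the survival protein that Noxa binds, 1513 and 1117 against 3889 to 5754 (log2 -1.93, SE 0.30, limma adjusted p = 0.0398). With a pseudocount of 16 Pmaip1 lost its call (log2 -3.08, limma adjusted p = 0.0521), which leaves Mcl1. Slc7a7, a carrier of cationic amino acids, was the 1 called of 13 tested amino acid carriers (819 and 696 against 1835 to 2037). Manba was the 1 called of 26 lysosome genes and Fgf4 the 1 called of 19 FGF signalling genes, both lower. Of 17 BMP and Nodal genes Bmp7 and Tdgf1 were called, against 2.44% of all tested genes. Interferon response genes had 0 of 18 called, Wnt signalling genes 0 of 20 and housekeeping controls 0 of 11.

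In total 208 genes were apart but not called, 84 above and 124 below. In these the 2 sphere lines lay a median of 0.49 log2 units from each other above and 0.56 below, against 0.29 and 0.41 in the called genes and 0.40 over all tested genes. The contrast with the called genes is partly built in, because the difference between the lines is part of the spread that limma tests against. The ES-type array nearest to the spheres was that of reverted cells for 47.1% of genes called higher and 48.7% of those called lower, and for 45.6% of all tested genes. Genes with no value on 1 side could not be tested. Gad2, which makes the transmitter GABA, read 68.5 and 46.9 in spheres and had no listed value on any ES-type array. Zfp57, which keeps imprints methylated, and Gpx2, a glutathione peroxidase, had no listed value in either sphere and read 42.0 to 65.2 and 45.9 to 438.9 on ES-type arrays.

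The 5 arrays had 22871 probes each, with 1392 to 2084 probes per array left without a value and a median intensity of 50 on each. Nothing in the labels says that the arrays come from repeated cultures, so p-values measure the spread between these arrays, and the ES-type spread includes differences between its 3 conditions. Where one side is near the floor, the size of a fold difference depends on the pseudocount, and intensities of different probes are not levels that can be ranked against each other.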

How the data were processed

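Total RNA was measured on 5 one-colour Toray arrays. Per the labels' protocols it was extracted with an RNeasy kit and amplified to amino allyl RNA before dye coupling. The authors deposited probe intensity values on a linear scale, with a median of 50 per array. No label or file header gives the scanner, background correction, normalization or rule for empty cells, and empty cells were not filled. The columns were mapped to samples by title.

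Of 22871 probes, 16264 had 1 gene symbol, 0 several and 6607 none in the platform annotation. Of 16087 symbols, 12239 were current in RefSeq's GRCm38.p6 genes, 3787 were updated by a single synonym and 61 kept, giving 16032 genes; 221 had several probes and were read by the probe with the highest mean. Values were taken to log2(intensity + 1) and centred on each array's median of the 18884 probes with a value everywhere. Tested genes had a value on all 5 arrays and were at or above the 40th percentile on 1 or more (intensity 28.6 to 29.3).

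Akt-spheres (n = 2) were tested against ES-type arrays (n = 3) with limma 3.58.1 in R 4.3.3 (lmFit, eBayes, 3 residual degrees of freedom), adjusted by Benjamini-Hochberg over all tested genes. The procedure was tested on simulated data. Named are the 6 marker genes, the 20 called genes per direction with the widest gap, called or apart members of the lists, members that give context with their values, and genes listed on 1 side only. Xmr was added outside these rules after its values were seen. The members and lists were chosen with earlier results of these data known, so they are no independent support. Alternatives changed the pseudocount, filter, normalization, probe choice, variance model, fit design and each array. The number of arrays limits the precision.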

Additional observations from a re-analysis of the deposited data

Results flagged for a closer look

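Probes without a gene symbol lay outside the comparison of named genes. Of 6607 such probes, 3555 passed the same filter, and 47 of them were at least 2-fold above every ES-type array in both sphere lines and 60 at least 2-fold below. They are unnamed here, and which transcripts they read was not tested.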

How the results depend on the processing

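Against 102 genes called higher and 156 called lower, limma called 0 and 0 with a mean for each of the 4 groups, which leaves 1 residual degree of freedom (1520 genes at an unadjusted p under 0.05, smallest limma adjusted p = 0.0744). Leaving out each array in turn gave 0 to 112 called higher and 0 to 172 called lower, the 0 coming when untreated ES cells were left out (smallest limma adjusted p = 0.0541). It gave 229 to 433 genes apart above and 325 to 593 apart below, since fewer arrays bound the gap. Of the calls without 1 array, 83 of 148 (no line 21 spheres), 64 of 98 (no line 42 spheres), 31 of 32 (no ES cells with 4OHT) and 171 of 284 (no reverted cells) were among the 258. With a pseudocount of 16, which lowers fold differences of dim probes, 121 genes were apart above in place of 186. A pseudocount of 0, no filter, a 60th percentile filter, quantile normalization, no centring, the mean of a gene's probes and an intensity trend in the variance gave 239 to 275 calls in all. Of the 73 called genes named by rule, whose direction the choice of members fixes, 69 kept the call with a pseudocount of 16 (all but Cidea, Itgb7, Nlrp4f and Pmaip1), 70 with quantile normalization (all but Cidea, Gsta4 and Tdgf1), and all 70 that the 60th percentile filter tested. Without 1 array the number was 47 (line 21 spheres), 38 (line 42 spheres), 0 (untreated ES cells), 26 (ES cells with 4OHT) and 60 (reverted cells), and with 4 group means 0. No paired analysis was possible because the ES-type groups hold 1 array each, all of line 21, and line 42 had no ES-type array. Probes near the floor limit how well a fold can be read.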

Other observations

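The sphere lines went opposite ways from the ES-type arrays, at least 2-fold each, for 3 tested genes, all higher in line 21: Nnt read 206 in line 21 and 33.5 in line 42 spheres against 73.7 to 93.4 on ES-type arrays, Sox11 82.8 and 4.85 against 15.2 to 39.5, and Wfdc2 1658 and 199 against 584 to 855. Zscan4c, a gene of the 2-cell embryo, could not be tested because reverted cells had no value, and read 3.59 in line 21 and 12913 in line 42 spheres against 1347 in ES cells with 4OHT and 1058 without. These 4 genes were chosen after their values were seen.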
